A study of Mus musculus with 16 samples.

Results

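Chemokines are small secreted proteins that draw cells along a gradient by binding G protein-coupled receptors on the cell surface, and the members of the 2 main families are called Ccl and Cxcl for the ligands and Ccr and Cxcr for the receptors. Mouse protein-coding genes whose symbols begin with one of these 4 names and a number were selected (GENCODE M21, mm10 build), which gave 52 genes of 21851 in all: 35 ligand genes (23 Ccl, 12 Cxcl) and 17 receptor genes (11 Ccr, 6 Cxcr). In the bone marrow the ligand Cxcl12, made mainly by stromal cells, and its receptor Cxcr4, carried by hematopoietic stem cells (HSCs), hold the stem cells in their niche. Most of the other chemokines are induced in inflamed tissue or in lymphoid organs and act on mature leukocytes.

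Chromatin of HSCs was profiled by chromatin immunoprecipitation and sequencing (ChIP-seq) for 3 histone marks at 2 ages. HSCs were sorted from the marrow of C57BL/6 mice, 10-week-old (Young) or 20-month-old (Aged). The sorted cells were negative for IL-7Rα, Lin, CD34, CD48 and Flt3 and carried Sca-1, c-kit and CD150. Per the study's methods the mice were female. The 16 libraries fell into 8 groups of 2, namely each mark and the input DNA at each age. No gene was altered and no agent was given, so by their labels the young and aged mice differed in age alone. H3K4me3 is a mark of promoters that are active or poised. H3K27me3 and H2AK119ub1 are the marks that the Polycomb repressive complexes PRC2 and PRC1 place on silenced developmental genes.

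The files held 1 pooled peak list per mark and age, so no value below has a replicate error and no difference between ages was tested. The intervals given are Wilson 95% intervals that cover counting error over genes only, and neighbouring genes share peaks. The lists also differed in length, with 11371 young and 6723 aged H3K4me3 peaks, 63142 young and 20419 aged H3K27me3 regions, and 2593 young and 17768 aged H2AK119ub1 regions. Read depth is unknown. As a check of the sorted cells, H3K4me3 lay at the promoters of 8 of 12 HSC marker genes in young and 9 of 12 in aged cells, at 1 and 0 of 5 B cell, 0 and 0 of 5 T cell, 0 and 0 of 6 myeloid, 2 and 0 of 4 erythroid and 0 and 1 of 5 stromal and endothelial marker genes. Kit was marked in aged cells only, and Ly6a and Slamf1 at neither age. Of all protein-coding genes, 33.8% had promoter H3K4me3 in young and 23.3% in aged cells. The marker lists are short and were chosen with earlier results of these data known, so the purity of the cells was not tested.

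Promoters were defined as 1 kb either side of the start sites of protein-coding transcripts, and counted as marked where a peak shared at least 1 bp with them. H3K4me3 lay at 7 of the 52 promoters in young HSCs (13.5%, interval 6.68 to 25.3%), where 33.8% of all protein-coding genes were marked, and at 3 in aged HSCs (5.77%, 1.98 to 15.6%), against 23.3% of all genes. Both shares were below that of all genes. H3K27me3 lay at 8 promoters in young cells (15.4%, 8.01 to 27.5%) against 16% of all genes and at 4 in aged cells (7.69%, 3.03 to 18.2%) against 8.24%. H2AK119ub1 lay at 2 in young cells (3.85%, 1.06 to 13%) against 1.91% and at 8 in aged cells (15.4%, 8.01 to 27.5%) against 14%. For the Polycomb marks the chemokine genes were thus marked about as often as genes at large.

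No promoter peak of any mark was found at 41 of the 52 genes in young cells (78.8%, against 52.9% of all genes) and at 42 in aged cells (80.8%, against 62.8%). In all, 39 of the 52 genes had no promoter peak of any mark at either age, so that 25% were marked, against 55% of all protein-coding genes. When gene bodies were added, 35 genes still had no peak in any of the 6 lists and 32.7% had one, against 62.9% of all genes. The unmarked genes include the ligands of neutrophil receptors Cxcl1, Cxcl2 and Cxcl3, the macrophage inflammatory proteins Ccl3 and Ccl4, Ccl5 (RANTES), the interferon-induced Cxcl9 and Cxcl10, the lymph node chemokines Ccl19, Ccl21a, Ccl21b and Cxcl13, and Ccl2, Ccl6, Ccl7, Ccl9, Ccl20, Ccl22, Ccl24, Ccl26, Ccl27a, Ccl27b, Ccl28 and Cxcl15. Among the receptors they include Ccr7, which guides cells to lymph nodes, the neutrophil receptors Cxcr1 and Cxcr2, and Ccr1, Ccr2, Ccr3, Ccr8, Cxcr5 and Cxcr6.

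**Figure D1:**
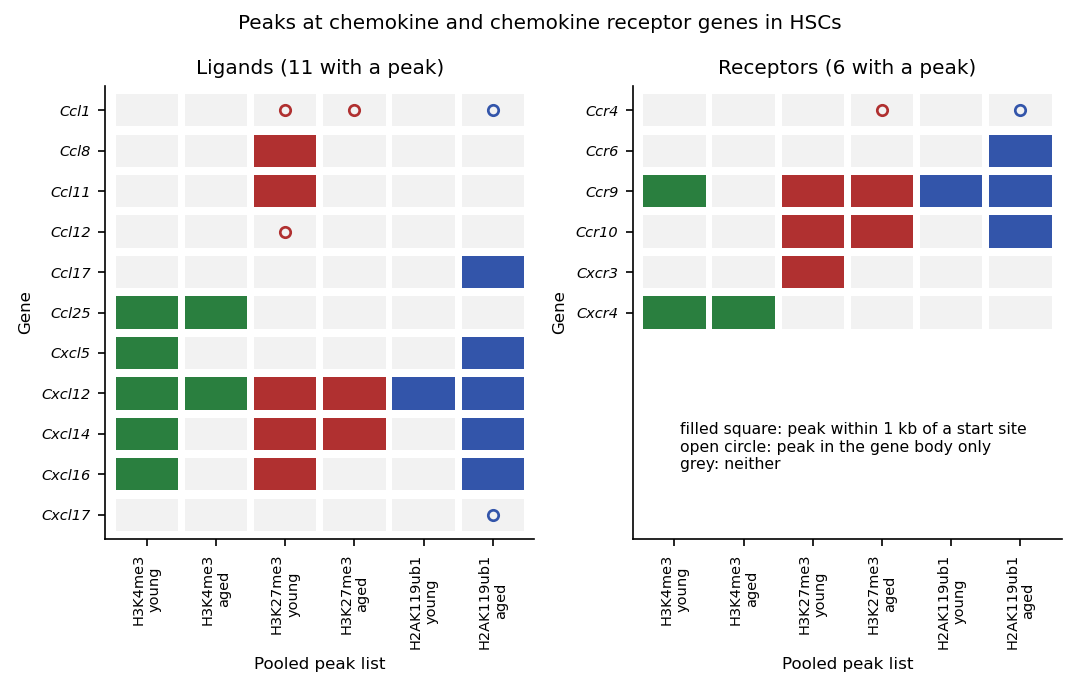
Promoter and gene-body status of the 11 ligand genes (left) and 6 receptor genes (right) with a peak in any list, 1 row per gene and 1 column per pooled peak list. Filled squares mark a peak within 1 kb of a start site and open circles a peak in the gene body only; Cxcl12 alone is filled in all 6 columns.

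Ligands and receptors did not differ beyond their intervals in the share of marked promoters. In young cells H3K4me3 lay at 5 of 35 ligand promoters (14.3%) and 2 of 17 receptor promoters (11.8%), and in aged cells at 2 (5.71%) and 1 (5.88%). H3K27me3 lay at 5 ligands (14.3%) and 3 receptors (17.6%) in young and at 2 (5.71%) and 2 (11.8%) in aged cells. H2AK119ub1 lay at 1 ligand (2.86%) and 1 receptor (5.88%) in young and at 5 (14.3%) and 3 (17.6%) in aged cells. In each list the interval of the ligands overlapped that of the receptors widely. Any mark at either age was found at 8 ligand promoters (22.9%) and 5 receptor promoters (29.4%).

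**Figure D2:**
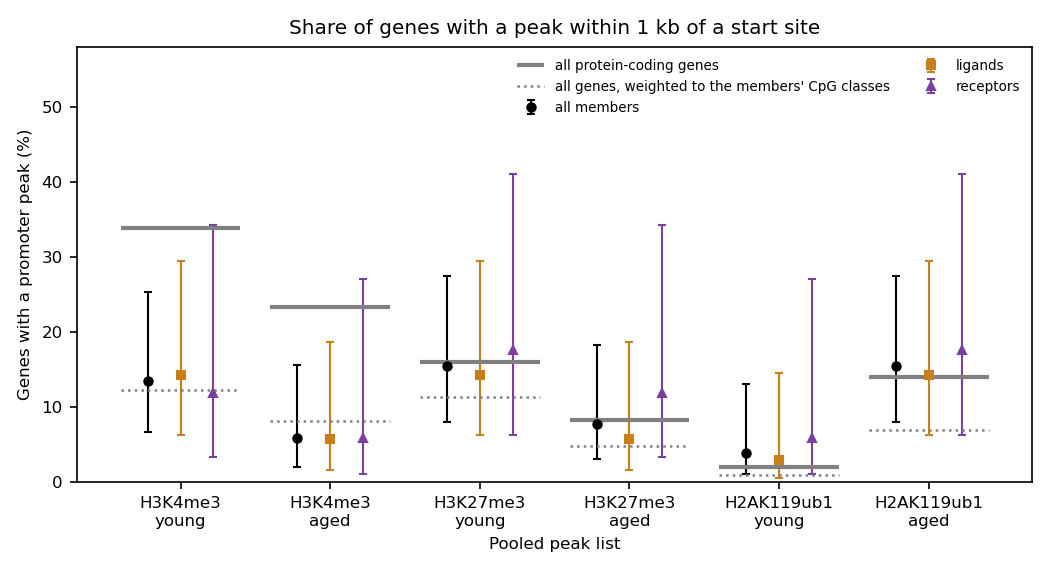
Percent of genes with a promoter peak in each pooled list for all 52 chemokine genes (circles), ligands (squares) and receptors (triangles), with Wilson 95% intervals over genes. Solid grey lines give the share of all 21851 protein-coding genes and dotted lines the same share after weighting genes to the CpG classes of the chemokine promoters; the H3K4me3 points lie far below the solid lines and near the dotted ones.

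The promoters with H3K4me3 were CpG-rich, with the exception of Cxcl5. The observed over expected CpG ratio was taken in the 500 bp either side of each start site. For each gene the highest value over its start sites was used. The median was 0.211 for the chemokine genes (0.224 for ligands, 0.176 for receptors) and 0.606 for all protein-coding genes. Ccl25 has 2 start sites and Ccr9 has 5, and the site with the highest ratio need not be the one with a peak. A ratio under 0.4 was found at 42 of the 52 (80.8%, against 35.9% of all genes), and 4 lay between 0.4 and 0.6 (Ccl27a, Cxcl1, Cxcl9 and Cxcl10). The 6 promoters at 0.6 or over were Ccl25 (1.08), Ccr9 (0.927), Cxcl14 (0.814), Cxcl12 (0.789), Cxcr4 (0.625) and Cxcl16 (0.607). All 6 carried H3K4me3 in young cells, where 55.4% of all genes of that class did, and 1 of the 42 CpG-poor promoters did (Cxcl5, 0.378), which is 2.38% against 4.11% of all CpG-poor genes. For Ccl25, Ccr9 and Cxcl16, 3 of these 6, every young H3K4me3 peak also lay at the promoter of another gene, and without such peaks the 7 marked chemokine genes were 4. In aged cells H3K4me3 lay at 3 of the 6 CpG-rich promoters (38.6% of all genes of that class), at 0 of the 42 CpG-poor (2.55%) and at 0 of the 4 between (21%; 31.7% in young cells, also 0 of 4). None of the 39 unmarked promoters was in the CpG-rich class.

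The Polycomb marks were split between CpG-rich and CpG-poor chemokine promoters. H3K27me3 lay at 4 of the 6 CpG-rich promoters in young cells (18.1% of all genes of the class) and 3 in aged cells (10%), and at 4 of the 42 CpG-poor ones in young cells (Ccl11, Ccl8, Ccr10 and Cxcr3; 9.52%, against 8.8%) and 1 in aged cells (Ccr10; 2.38%, against 3.04%). H2AK119ub1 lay at 2 CpG-rich promoters in young cells (2.65% of the class) and 4 in aged cells (19.6%), and at none of the CpG-poor ones in young cells (0.459%) and 4 in aged cells (Ccl17, Ccr10, Ccr6 and Cxcl5; 9.52%, against 3.87%). The 4 promoters between had neither mark at either age, where 27.7% and 15.5% of all genes of that class had H3K27me3 and 3% and 20.1% had H2AK119ub1 in young and aged cells.

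**Figure D3:**
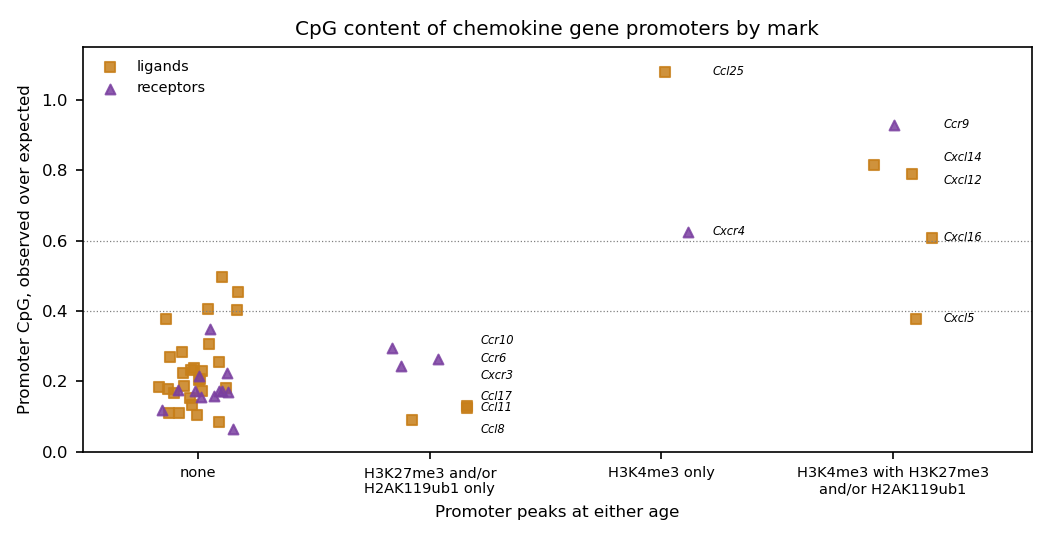
Observed over expected CpG ratio of each chemokine gene (highest of its start sites), grouped by the promoter peaks found at either age. Points are spread sideways for sight only and dotted lines mark ratios of 0.4 and 0.6. The 39 unmarked promoters reach 0.497 at most, whereas promoters with H3K4me3 range from 0.378 to 1.08.

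The sequences before the start sites illustrate the difference between CpG-rich and CpG-poor promoters, in chosen examples. Of the CpG-poor examples Ccl8 had young H3K27me3 and Ccl17 aged H2AK119ub1, and only Ccl3 was unmarked. The 250 bases before the RefSeq start site (GRCm38.p6, the assembly of mm10) are printed 5′ to 3′ on the gene's strand with CG dinucleotides in capitals for 3 CpG-rich promoters with marks, at chr6:117168285-117168534 (plus strand) for Cxcl12, chr13:56296552-56296801 (minus) for Cxcl14 and chr1:128592300-128592549 (minus) for Cxcr4, and for 3 CpG-poor ones, at chr11:82114935-82115184 (plus) for Ccl8, chr8:94810203-94810452 (plus) for Ccl17 and chr11:83649379-83649628 (minus) for Ccl3. RefSeq promoters were matched for 38 of the 52 genes, and those without an entry include Ccl2, Ccl4, Ccl5, Ccl7, Ccl11, Ccr10, Cxcl5, Cxcl16 and Cxcl17.
Cxcl12: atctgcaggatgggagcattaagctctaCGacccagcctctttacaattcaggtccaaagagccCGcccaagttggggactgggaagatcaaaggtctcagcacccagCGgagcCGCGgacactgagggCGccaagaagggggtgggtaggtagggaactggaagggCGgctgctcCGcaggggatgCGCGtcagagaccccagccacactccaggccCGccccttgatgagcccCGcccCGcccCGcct
Cxcl14: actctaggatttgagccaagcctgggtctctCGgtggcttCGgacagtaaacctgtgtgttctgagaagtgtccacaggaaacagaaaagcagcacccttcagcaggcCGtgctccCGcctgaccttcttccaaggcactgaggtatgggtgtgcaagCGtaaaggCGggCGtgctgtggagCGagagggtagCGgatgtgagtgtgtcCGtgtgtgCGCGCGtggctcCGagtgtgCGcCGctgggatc
Cxcr4: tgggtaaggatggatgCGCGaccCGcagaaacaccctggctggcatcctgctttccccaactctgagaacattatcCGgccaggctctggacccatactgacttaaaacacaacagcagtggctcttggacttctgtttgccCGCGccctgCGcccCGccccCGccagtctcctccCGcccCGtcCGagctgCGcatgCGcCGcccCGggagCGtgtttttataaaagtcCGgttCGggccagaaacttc
Ccl8: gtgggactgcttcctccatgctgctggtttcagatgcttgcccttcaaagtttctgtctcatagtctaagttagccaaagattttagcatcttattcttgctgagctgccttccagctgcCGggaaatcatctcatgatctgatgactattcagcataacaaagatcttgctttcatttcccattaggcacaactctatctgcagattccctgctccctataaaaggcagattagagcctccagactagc
Ccl17: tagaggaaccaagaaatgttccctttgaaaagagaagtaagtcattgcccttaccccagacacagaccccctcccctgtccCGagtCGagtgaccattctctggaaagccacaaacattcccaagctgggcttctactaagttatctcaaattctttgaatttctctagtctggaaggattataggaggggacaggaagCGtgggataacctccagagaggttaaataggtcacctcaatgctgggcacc
Ccl3: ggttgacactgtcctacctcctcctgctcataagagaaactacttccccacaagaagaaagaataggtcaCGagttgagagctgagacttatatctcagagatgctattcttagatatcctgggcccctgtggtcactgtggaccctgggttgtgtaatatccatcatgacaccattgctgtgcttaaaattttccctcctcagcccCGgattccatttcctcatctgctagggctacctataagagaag

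These stretches hold 14, 16 and 19 CG dinucleotides in Cxcl12, Cxcl14 and Cxcr4, and 1, 3 and 2 in Ccl8, Ccl17 and Ccl3. Over the matched genes the median was 3 in the chemokine genes and 11 in all 16515 protein-coding genes with an entry. Weighting all genes to the CpG classes of the 52 chemokine promoters brought the share with young H3K4me3 from 33.8% to 12.2%, next to the 13.5% of the chemokine genes, and the aged share from 23.3% to 8.13%, next to 5.77%. The same weighting gave 11.3% and 4.8% for H3K27me3 in young and aged cells, 0.906% for young H2AK119ub1 and 6.93% for aged H2AK119ub1, where the chemokine genes had 15.4%, 7.69%, 3.85% and 15.4%. Both Polycomb marks lay above their weighted shares at both ages, within the interval over genes for H3K27me3 and outside it for H2AK119ub1, whose 8 aged genes compare with 3.6 from the class shares. These counts are small, the intervals take genes as independent, and no test was run. The 2 young H2AK119ub1 genes were Ccr9, by a region also at the promoter of Slc6a20a, and Cxcl12, by an overlap of 59 bp. With equal numbers of peaks at both ages the 8 aged genes became 3, and with a -log10 q of 4 or more they became 1. The shares of all genes were not recomputed for those settings.

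Cxcr4, the receptor for Cxcl12, carried H3K4me3 at both ages and neither Polycomb mark. Its gene lies at chr1:128588199-128592293 on the minus strand. In young cells a single 629-bp peak at chr1:128591632-128592260 began 30 bp downstream of the start site. It overlapped UTR and coding sequence and also reached into the intron. Its fold enrichment over background was 4.48, with 23 reads at the summit over a background of 4.35. In aged cells 2 narrower peaks lay there. One, chr1:128592418-128592617, lay 128 bp upstream of the start site with 5.31-fold enrichment (23 reads over 3.52), higher than 94.6% of the aged H3K4me3 peaks counted up to and including it. The other, chr1:128591661-128591906 in the intron, had 2.58-fold enrichment (22 reads over 7.91), near the bottom of the list. The nearest H3K27me3 region lay 307495 bp away in young and 679903 bp in aged cells, and the nearest H2AK119ub1 region 215220 and 41218 bp away. Ccl25, a ligand made in thymus and small intestine, was the one other chemokine gene with this set of calls.

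With promoters of 1 kb either side of a start site, Cxcl12 was the one chemokine gene with all 3 marks at both ages. Its young H2AK119ub1 call rested on an overlap of 59 bp. Within 500 bp of a start site Cxcl12 had H3K4me3 at neither age and no young H2AK119ub1. Its gene lies at chr6:117168535-117181367 on the plus strand. Young H3K27me3 spanned 7350 bp across the start site (chr6:117165099-117172448, 3.55-fold), and 11 young regions within 10 kb of the start summed to 12481 bp. In aged cells the region at the start was 1991 bp wide (chr6:117166627-117168617, 3.56-fold) and 9 regions summed to 6823 bp. The fold enrichment at the start was thus alike at the 2 ages and the width was not. H3K4me3 peaks of 212 bp in young (4.46-fold, 20 reads over 3.7) and 235 bp in aged cells (4.17-fold, 19 reads over 3.8) lay in the first intron, 877 and 805 bp downstream of the first start site. H2AK119ub1 had 1 young region within 10 kb (chr6:117167322-117167593, 3.59-fold) and 10 aged regions, of which chr6:117167383-117167630 reached 5.07-fold with a -log10 q of 6.04, among the highest of the 17768 aged H2AK119ub1 regions.

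Cxcl14, a chemokine of epithelia, had young H3K4me3 and H3K27me3, and aged H3K27me3 and H2AK119ub1. Its young H3K27me3 consisted mainly of a 7224-bp region over the gene (chr13:56288657-56295880, 3.56-fold) and a 1781-bp region over the start (chr13:56296497-56298277, 3.59-fold). In aged cells the promoter kept a 1049-bp region upstream (chr13:56296732-56297780, 3.48-fold) and a 382-bp region in the intron (3.38-fold), and the regions within 10 kb summed to 2346 bp against 10326 bp in young cells. The young H3K4me3 peak, 222 bp and 4.04-fold, lay over coding sequence; the nearest aged H3K4me3 peak was 225938 bp away. A 632-bp aged H2AK119ub1 region (chr13:56297101-56297732, 3.52-fold) lay in the upstream part.

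**Figure D4:**
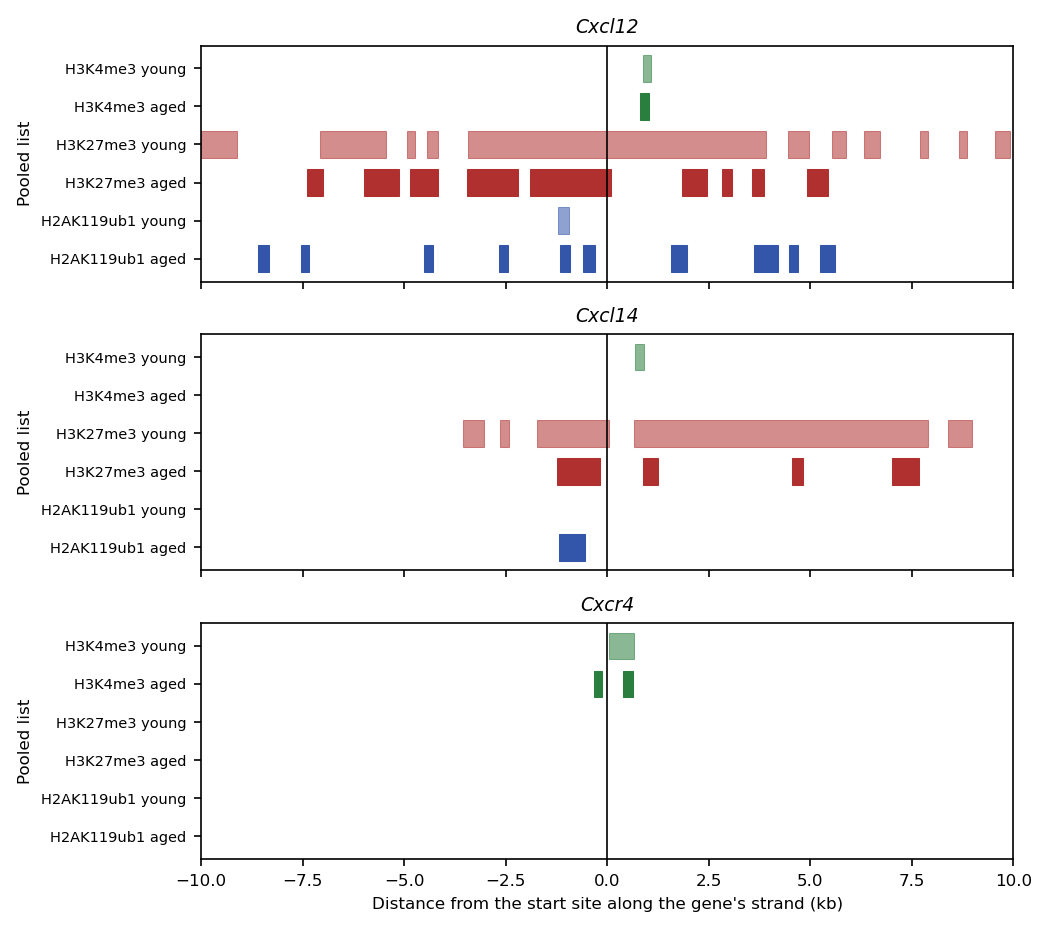
Peaks within 10 kb of the start sites of Cxcl12, Cxcl14 and Cxcr4 in the 6 pooled lists, by distance along the gene's strand; each bar spans a listed peak, pale for young and full colour for aged. Young H3K27me3 forms bars of 7350 bp at Cxcl12 and 7224 bp at Cxcl14 where aged bars are shorter, and Cxcr4 shows H3K4me3 alone.

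The promoter peaks of the remaining marked ligands were 200 to 720 bp wide. Cxcl16, a membrane-bound ligand of Cxcr6, had 2 young H3K4me3 peaks (4.25-fold and 4.04-fold), a young H3K27me3 region of 483 bp (2.91-fold) and 2 aged H2AK119ub1 regions (3.41-fold and 2.74-fold), all also within 1 kb of a start site of the neighbour Zmynd15. Cxcl5, a neutrophil attractant, had a 271-bp young H3K4me3 peak that ended 18 bp upstream of the start site (4.13-fold) and aged H2AK119ub1 of 241 bp over it (chr5:90759161-90759401, 3.87-fold, above 95.2% of the list counted with it). Ccl11 (eotaxin) had 3 young H3K27me3 regions at its promoter, the highest 720 bp over the first exon (chr11:82057766-82058485, 3.2-fold). Ccl8, a monocyte attractant, had 1 of 441 bp in coding sequence (2.86-fold). Ccl17, a ligand of Ccr4, had aged H2AK119ub1 of 200 bp in coding sequence (2.73-fold, -log10 q 1.23), among the lowest in its list. The H3K4me3 peaks called for Ccl25 (3.48-fold young, 3.76-fold aged) both came from its upstream start site at position 4325233 of chromosome 8; the young peak was also at the promoter of Elavl1, and the aged peak was 982 bp away, just inside the 1 kb used. The principal start site of Ccl25, at 4349588, had no H3K4me3 peak nearer than 24087 bp.

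Among the receptors, Ccr9, which guides lymphoid progenitors to the thymus and lymphocytes to the gut, carried all 3 marks in young cells and both Polycomb marks in aged cells. All of these calls came from 1 start site, at 123678439 on chromosome 9, which shares its promoter with Slc6a20a. There H3K27me3 spanned 3349 bp in young cells (chr9:123676221-123679569, 3.3-fold) and had 2 regions of 245 and 567 bp in aged cells (3.07-fold and 3.38-fold). H2AK119ub1 reached 3.63-fold in young and 4.12-fold in aged cells, and a 264-bp young H3K4me3 peak had 3.83-fold enrichment. At the start site that RefSeq gives, 123767211, the nearest peak of any list was 46652 bp away. Ccr10, the receptor of skin-homing T cells, had H3K27me3 over its start in young (chr11:101175029-101175648, 3.82-fold, above 95.5% of the list counted with it) and aged cells (chr11:101175024-101175457, 3.11-fold) and aged H2AK119ub1 over the same bases (chr11:101175024-101175471, 2.96-fold), also at a promoter of Cntnap1. Cxcr3, the receptor for Cxcl9 and Cxcl10, had a 222-bp young H3K27me3 region (3.25-fold), and in aged cells the nearest region was 2540 bp away. Ccr6, the receptor for Ccl20, had an aged H2AK119ub1 region 457 bp upstream of a start site (3.09-fold).

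Between the ages the calls at chemokine promoters went one way for each mark. Cxcr4, Cxcl12 and Ccl25 had H3K4me3 at both ages (5.77% of the 52, against 17.5% of all genes) and Cxcl16, Cxcl14, Cxcl5 and Ccr9 in young cells only (7.69% against 16.3%). Ccr10, Cxcl14, Cxcl12 and Ccr9 had H3K27me3 at both ages (7.69% against 7.83%) and Cxcl16, Ccl11, Ccl8 and Cxcr3 in young cells only (7.69% against 8.22%). Cxcl12 and Ccr9 had H2AK119ub1 at both ages (3.85% against 1.5%) and Cxcl16, Ccr10, Cxcl14, Ccr6, Cxcl5 and Ccl17 in aged cells only (11.5% against 12.5%). No chemokine promoter had H3K4me3 or H3K27me3 in the aged list alone, where 5.78% and 0.412% of all genes did, and none had H2AK119ub1 in the young list alone, where 0.412% did. The lengths of the lists differed in the same directions. Of all genes with a young call, 51.8% (H3K4me3), 48.8% (H3K27me3) and 78.4% (H2AK119ub1) were also called in aged cells, and of those with an aged call 75.2%, 95% and 10.7% were also called in young cells. With equal numbers of peaks at both ages H3K4me3 lay at 4 chemokine promoters in young and 3 in aged cells, H3K27me3 at 5 and 4, and H2AK119ub1 at 2 and 3.

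H3K4me3 and H3K27me3 together lay at 4 chemokine promoters in young cells (Ccr9, Cxcl12, Cxcl14 and Cxcl16; 7.69%, against 2.96% of all genes) and at 1 in aged cells (Cxcl12; 1.92% against 0.792%). H3K27me3 and H2AK119ub1 together lay at 2 in young cells (Ccr9 and Cxcl12, 3.85% against 1.65%) and at 4 in aged cells (these 2, Ccr10 and Cxcl14; 7.69% against 4.99%). H3K4me3 and H2AK119ub1 together lay at Ccr9 and Cxcl12 in young cells (3.85% against 0.403%) and at Cxcl12 in aged cells (1.92% against 3.16%). All 3 marks lay at Ccr9 and Cxcl12 in young cells (3.85% against 0.302%) and at Cxcl12 in aged cells (1.92% against 0.618%). No more than 4 genes stand behind each of these shares, and for Ccr9, Cxcl16 and Ccr10 promoter peaks of each mark counted also lay at a neighbour's promoter. The young H2AK119ub1 call of Cxcl12 rested on an overlap of 59 bp. Within 500 bp of a start site neither Ccr9 nor Cxcl12 had young H2AK119ub1, and Cxcl12 had H3K4me3 at neither age.

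Gene bodies, from annotated start to end, held H3K4me3 in 7 chemokine genes in young and 2 in aged cells (13.5% and 3.85%, against 32% and 21.4% of all genes), H3K27me3 in 10 and 6 (19.2% and 11.5%, against 21.2% and 12.5%) and H2AK119ub1 in 1 and 9 (1.92% and 17.3%, against 4.11% and 22.1%). Chemokine genes are short, with a median of 4429 bp against 17380 bp, and 40 of the 52 are no longer than 10 kb. Of these 40, H3K4me3 lay in 4 and 1 in young and aged cells (10% and 2.5%, against 18.4% and 11.8% of all genes that short), H3K27me3 in 7 and 2 (17.5% and 5%, against 14.5% and 7.39%) and H2AK119ub1 in 0 and 4 (0% and 10%, against 2.67% and 12.5%). A peak in the body without one at the promoter was found in 4 genes (7.69%, against 7.88% of all genes). Ccl12, a monocyte attractant of the mouse, had a young H3K27me3 region of 1219 bp that reached 45 bp into its last exon. Cxcl17, a mucosal chemokine, had aged H2AK119ub1 of 362 bp in an intron (chr7:25402349-25402710, 2.94-fold). Ccr4, the receptor for Ccl17 and Ccl22, and Ccl1, the ligand of Ccr8, had theirs outside their protein-coding transcripts, in parts of the annotated gene that longer noncoding transcripts cover.

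Genes less than 100 kb apart were joined into 10 clusters, each taken with 10 kb on either side. Of these, the cluster of Ccl2, Ccl7, Ccl11, Ccl12, Ccl8 and Ccl1, whose products attract monocytes, eosinophils and T cells, had the highest share of bases under young H3K27me3. In this cluster, chr11:82025571-82315690, young cells had 107 H3K27me3 regions that covered 57756 bp, or 19.9% of its 290120 bp, against 1.5% of the assembled chromosomes. Aged cells had 5 regions that covered 1707 bp, or 0.588%, against 0.367%. The young regions were 200 to 4420 bp wide with a median fold of 3.06, and the widest lay between Ccl8 and Ccl1 (chr11:82145084-82149503, 3.43-fold). Of 9056 windows of the same length laid end to end along the chromosomes, 71 (0.784%) were covered to this extent by young H3K27me3, and 15.3% of the windows were covered by aged H3K27me3 as much as the cluster was in aged cells. No H3K4me3 peak lay in the cluster at either age, no H2AK119ub1 region in young cells and 1 in aged cells.

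This cluster had the highest young coverage of the 10, which in advance favours a high rank among windows and a high ratio of young to aged. Neither comparison is therefore a test. The bases covered in the cluster were 33.8 times as many in young as in aged cells, while across the assembly they were 4.1 times as many. With the young list shortened to the length of the aged one, a choice made after seeing the data, the cluster had 33 young regions covering 8.55%, which is 14.5 times the aged bases, against 0.79% of the assembly. When the noncoding part of Ccl1 was left out, 22.4% was covered in young and 0.377% in aged cells. Although the cluster was this densely covered, single genes differed: in young cells 46.1% of the Ccl11 gene, 27.3% of Ccl8, 2.89% of Ccl12 and none of Ccl2 or Ccl7 was covered, the nearest regions to the starts of Ccl2 and Ccl7 being 5871 and 2354 bp away. The coverage was not particular to chemokine genes. All 38 of the 50-kb windows from -1200 to 700 kb of the Ccl2 start held a young region, with 1.48 to 43.9% of their bases covered, and the windows beyond, to -1500 and 1000 kb, held none. This stretch also spans Asic2, a neuronal ion channel gene (19.5% covered in young and 1.78% in aged cells), and Tmem132e (25.1% and 2.68%). Of the 38 windows 25 held an aged region, and 1.36% of the stretch was covered in aged against 18% in young cells.

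**Figure D5:**
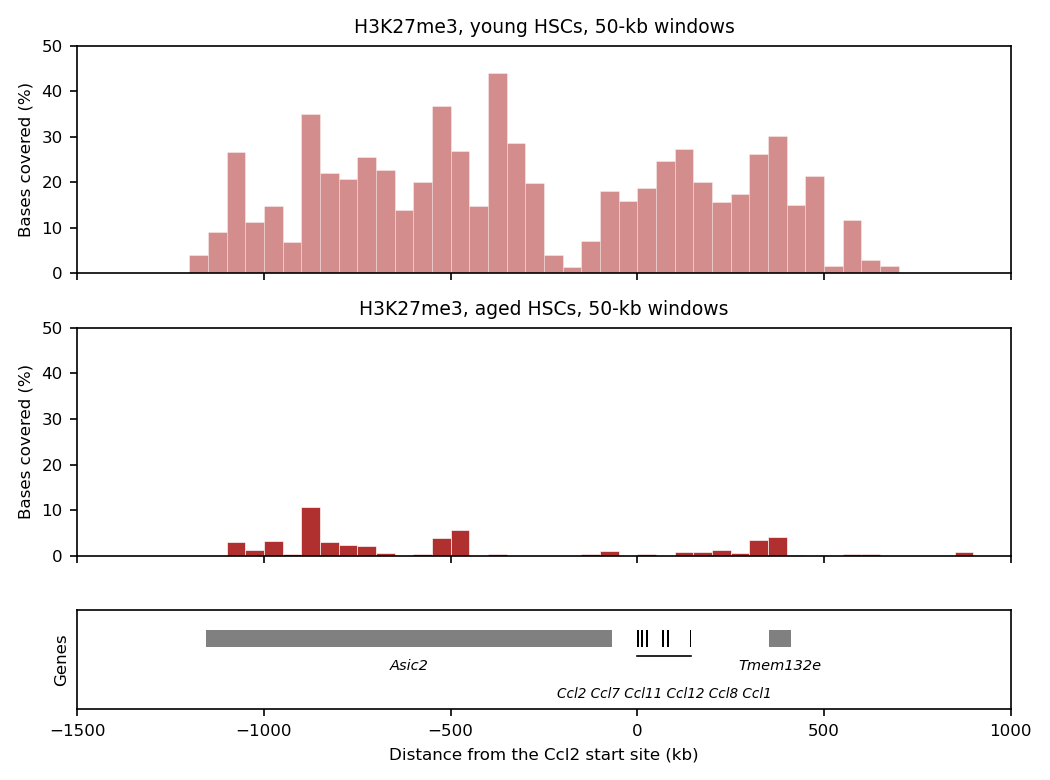
Percent of bases covered by H3K27me3 in 50-kb windows around the Ccl2 start site in young (top) and aged (middle) HSCs, from 1 pooled list each, and the positions of the 6 chemokine genes (protein-coding transcripts; drawn at least 4 kb wide), Asic2 and Tmem132e (bottom). Young windows reach 43.9% across a stretch from -1200 to 700 kb, and no aged window exceeds 10.7%.

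Of the other clusters, 3 held peaks. No peak of any mark at either age lay in the cluster of Ccl5, Ccl9, Ccl6, Ccl3 and Ccl4 on the same chromosome (chr11:83515778-83674683), or in the clusters of Cxcr2 and Cxcr1, of Cxcl9 and Cxcl10, of Ccl26 and Ccl24 and of Ccl27b, Ccl19 and Ccl21a. The cluster of Cxcl5, Cxcl3, Cxcl15, Cxcl1 and Cxcl2 held the peaks of Cxcl5 alone, and that of Ccl22 and Ccl17 had 1 young and 3 aged H2AK119ub1 regions, covering 0.672% and 1.47% of it against 0.0351% and 0.275% of the assembled chromosomes. In the cluster of Ccr9 and Cxcr6, H3K27me3 covered 4.82% in young and 1.35% in aged cells (1.5% and 0.367% of the assembled chromosomes) and aged H2AK119ub1 1.53% (0.275%), so that in aged cells its H3K27me3 coverage was above that of the Ccl2 cluster. Over all 10 clusters 4.86% was covered by H3K27me3 in young and 0.282% in aged cells, against 1.5% and 0.367% of the assembled chromosomes. Of the 65144 bases covered in young cells, 57756 lay in the Ccl2 cluster and 7388 in that of Ccr9 and Cxcr6. The other clusters had no H3K27me3 at either age.

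Several chemokine promoters shared a motif that is rare among all promoters. The 6 short motifs below were searched on both strands of the 300-base RefSeq promoters (250 bases before and 50 after the start). The NF-kB motif (GGG and TTTCC with 2 free bases between them) was found in 6 of 38 chemokine promoters (15.8%) and in 1.83% of all 16515. They were Cxcl1, Cxcl2, Cxcl3, Ccl20, Ccl9 and Ccr3, of which Cxcl1, Cxcl2 and Cxcl3 lie in 1 cluster. None of the 6 had a peak in any list, which was also so for 35 of the 52 chemokine genes. A link between the motif and the lack of peaks was not tested. The stretch from -120 to -51 is printed for the first 4, each on the plus strand, with matches on either strand in capitals, at chr5:90891125-90891194 for Cxcl1, chr5:90903779-90903848 for Cxcl2, chr5:90785981-90786050 for Cxcl3 and chr1:83116646-83116715 for Ccl20.
Cxcl1: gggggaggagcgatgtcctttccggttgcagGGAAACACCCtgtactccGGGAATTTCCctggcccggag
Cxcl2: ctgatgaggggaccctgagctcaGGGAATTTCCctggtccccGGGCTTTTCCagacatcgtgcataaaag
Cxcl3: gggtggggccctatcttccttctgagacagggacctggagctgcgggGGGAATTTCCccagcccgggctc
Ccl20: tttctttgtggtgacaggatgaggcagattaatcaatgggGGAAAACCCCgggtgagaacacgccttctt

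Cxcl1 and Cxcl2, neighbours and near copies of each other, each hold 2 matches, beginning at -89 and -71 and at -97 and -78 from the start site. The AP-1 motif TGANTCA was in 9 of the 38 (23.7%, against 8.16%), the TATA motif TATAAA in 11 (28.9%, against 14.3%; 9 of 25 ligands and 2 of 13 receptors), the ISRE motif (2 copies of GAAA with 2 free bases between them) in 3 (Ccl19, Cxcl10 and Cxcl14; 7.89%, against 4.02%), the STAT motif TTCNNNGAA in 4 (10.5%, against 9.02%) and the CRE motif TGACGTCA in none (against 2.64%). A match says that these letters are present and not that a factor was bound, and CpG content differs between the chemokine promoters and the others.

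Of 42 listed other genes of the pathway, H3K4me3 lay at the promoters of 20 in young (47.6%, against 33.8% of all genes) and 12 in aged cells (28.6%, against 23.3%). Among the 31 signalling, adhesion and regulatory genes it lay at 19 and 12 (61.3% and 38.7%), among them at both ages Gnai2 and Gnai3 (inhibitory G protein subunits), Arrb2 (arrestin), Pik3cg and Plcb2 (effectors of G protein subunits), Rac1 and Prex1 (a Rac and its exchange factor), Itga4 (integrin of the niche), Rgs18 (a regulator of G protein signalling) and Ptk2. Among the 11 further ligands and receptors it lay at Ccrl2 in young cells and at none in aged cells; Pf4, Ppbp, Cx3cr1, Xcl1, Xcr1, Ackr1, Ackr2 and Ackr4 had no promoter peak of any mark. Ackr3, the scavenging receptor of Cxcl12, had young H3K27me3 and aged H2AK119ub1. Cx3cl1 had H2AK119ub1 at both ages, and Rgs16 had H3K27me3 and H2AK119ub1 at both ages. Of the 42 genes, 2 had H3K27me3 in young cells (4.76%, against 16% of all genes) and 1 in aged cells (2.38%, against 8.24%). Young H2AK119ub1 lay at 2 of the 42 (4.76%, against 1.91%). Aged H2AK119ub1 lay at 6 of the 31 (19.4%; Arrb1, Gnai2, Pik3r5, Prex1, Ptk2b and Rgs16) and at 2 of the 11 (18.2%), against 14% of all genes.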

How the data were processed

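ChIP-seq peaks of H3K4me3, H3K27me3 and H2AK119ub1 in young and aged HSCs were analysed, 1 pooled list per mark and age; input libraries had no list of their own. Per the submitters' processing notes, Bowtie2 and MACS2 2.2.6 were used with build mm10; the roles of input and replicates in each list are not given in the sources used here, and the names in the broad lists carry 1 library number. The deposited columns used are coordinates, the fold enrichment over background (a linear ratio) and the −log10 p-value and −log10 q-value that the authors' peak caller gave. H3K4me3 read numbers at the summit were recovered from fold and p, and all came out whole within 0.001 on the log10 scale.

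Overlaps of at least 1 bp were taken between peaks of the assembled chromosomes (1 to 19, X, Y) and 1 kb either side of the 41438 start sites or the bodies of 21851 protein-coding genes of the GENCODE M21 basic annotation, in Python 3.11.15 with pandas 2.3.3 and pysam 0.24.0. Overlap code was tested on simulated intervals. Every chemokine gene with a promoter peak is named with values. 1 gene is counted but not reported by name here. The gene set and the lists of markers and pathway genes were chosen with earlier results of these data known. With 1 pooled list per group no test was run, and differences between ages cannot be told apart from differences in library depth or enrichment.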

Additional observations from a re-analysis of the deposited data

How the results depend on the processing

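No leave-one-out values could be had, and no paired analysis was possible because each deposited list pools the libraries of a group and carries no replicate number. Windows of 2 kb, the 5′ end of each gene and the start sites of the full annotation (the last chosen after seeing the data) kept every promoter count within 1.5 times the value given. Of 162 promoter counts recomputed 43 moved further, and of 90 gene-body counts 26.

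Peaks with a -log10 q of 4 or more are 63.5% and 60.8% of the H3K4me3 lists but 2.54% or less of the other 4. With these alone 0 chemokine promoters and gene bodies held H3K27me3 at either age or young H2AK119ub1, and 1 (Cxcl12) aged H2AK119ub1 (1 ligand, 0 receptors); young H3K4me3 was left at 1 receptor (promoter and body), aged H3K4me3 at 1 ligand promoter and in 1 gene body (0 receptors). With the same number of peaks at both ages, young H3K4me3 lay at 4 promoters (3 ligands, 1 receptor; bodies likewise), young H3K27me3 at 5 (3 ligands) and aged H2AK119ub1 at 3 (2 ligands, 1 receptor) and in 4 bodies (2 ligands). An overlap of 200 bp left aged H3K4me3 at 1 ligand, young H2AK119ub1 at 1 gene (0 ligands) and young H3K4me3 in 1 receptor body. Within 500 bp, aged H3K4me3 was left at Cxcr4 alone (1; 0 ligands), young H3K27me3 at 3 ligands, aged H3K27me3 at 1 receptor, young H2AK119ub1 at 0 genes (0 ligands, 0 receptors) and aged H2AK119ub1 at 3 ligands. Without peaks that also lay at another gene's promoter, young H3K4me3 lay at 4 genes (3 ligands, 1 receptor), H3K27me3 at 5 young (1 receptor) and 2 aged genes (0 receptors) and young H2AK119ub1 at 1 (0 receptors). Principal start sites alone, a choice made after seeing the data, left aged H3K4me3 at 1 ligand. Bodies without promoter windows held H3K4me3 in 1 young gene (1 ligand, 0 receptors) and 0 aged genes (0 ligands, 0 receptors).

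By CpG class (low, middle, high) the share of all genes marked was 4.11, 31.7 and 55.4% for young and 2.55, 21 and 38.6% for aged H3K4me3, 8.8, 27.7 and 18.1% and 3.04, 15.5 and 10% for H3K27me3, and 0.459, 3 and 2.65% and 3.87, 20.1 and 19.6% for H2AK119ub1. For gene bodies of at most 10 kb the shares were 18.4 and 11.8%, 14.5 and 7.39%, and 2.67 and 12.5%. With lists of equal length the clusters were covered to 2.1% by young H3K27me3. The causes of these shifts were not tested. Depth is unknown, and a gene without a listed peak may carry a mark below the callers' threshold.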
